A study of Mus musculus with 2 samples.

Results

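The collagen gene family was taken as every gene symbol in the deposited annotation that reads Col, a number, the letter a and a number, such as Col1a1. This gave 44 of 32285 genes, each with 1 entry in the annotation. They were divided by the structure their chains build into 11 fibrillar, 9 basement membrane and 24 other collagens. The other collagens comprised 6 chains of type VI, 9 collagens that sit on fibril surfaces, 3 that build short networks, 4 that span the cell membrane and 2 that fit none of these. The choice used names only and no measured value.

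Collagens are secreted proteins whose chains wind around each other into a helix and then assemble outside the cell. Fibrillar collagens form the tension-bearing cables of connective tissue, type IV chains form the sheet on which epithelium, endothelium and muscle cells rest, and type VI chains form beaded filaments between the fibrils and the cells. In the uterus the stroma, a loose connective tissue under the epithelium, and the muscle wall make most of this matrix, which is built up and taken down with the reproductive cycle and pregnancy.

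Uteri of mice were compared between 2 groups, 4 h after treatment. Animals of the DOX group were given 3 mg/kg of doxorubicin, a chemotherapy drug that causes DNA breaks. Those of the DOX_AMH group were given the same 3 mg/kg of doxorubicin together with 0.75 mg/kg of anti-Müllerian hormone (AMH), a secreted ligand related to TGF-beta. Both groups carried the doxorubicin treatment, and no untreated library was analysed here. Uteri of 5 animals were pooled in each group, the tissue was dissociated with papain and collagenase A, and each pool became 1 droplet library of the 10x 3′ type. The study text gives 2 weekly doses and an age of postnatal day 25 for its bulk sequencing, and does not say whether the animals of the single-cell libraries had the same schedule. With 1 library per group no difference could be tested. Each log2 ratio below is DOX_AMH over DOX, followed in brackets by a 95% interval that covers counting error only and no spread between animals, pools or cells.

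The libraries held 129530270 and 97887259 unique molecular identifiers (UMIs, tags that mark each captured RNA once) over 9258 and 8083 barcodes, DOX first. Of these, 7387 and 6787 cells were kept, with a median of 13739 and 10109 UMIs, and 17 barcodes occurred in both libraries. Levels are UMIs per 1000000 UMIs of a cell class (CPM). Tags were counted at the 3′ end and once per molecule, so they were not divided by gene length.

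Collagen UMIs made up 1.458% of all UMIs in the DOX library and 0.8156% in the DOX_AMH library before any cells were left out. Cells were grouped by clustering that left the collagen genes out, and each cluster was called like a cell type from marker genes. Stromal-like cells, the largest class, numbered 4771 and 3652, smooth muscle-like cells 921 and 1132, pericyte-like cells 231 and 372, and vascular endothelial-like cells 129 and 247. Lymphatic endothelial-like cells numbered 85 and 59 and mesothelial-like cells, which line the outer surface of the uterus, 87 and 136. All 8 stromal markers and all 8 smooth muscle markers were detected in the class they name in both libraries. They were also all detected in other classes, such as macrophage-like cells, so detection alone does not set a class apart. Stromal-like cells were 64.6% of the kept cells in DOX and 53.8% in DOX_AMH, and all levels below are given within a class.

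**Figure D1:**
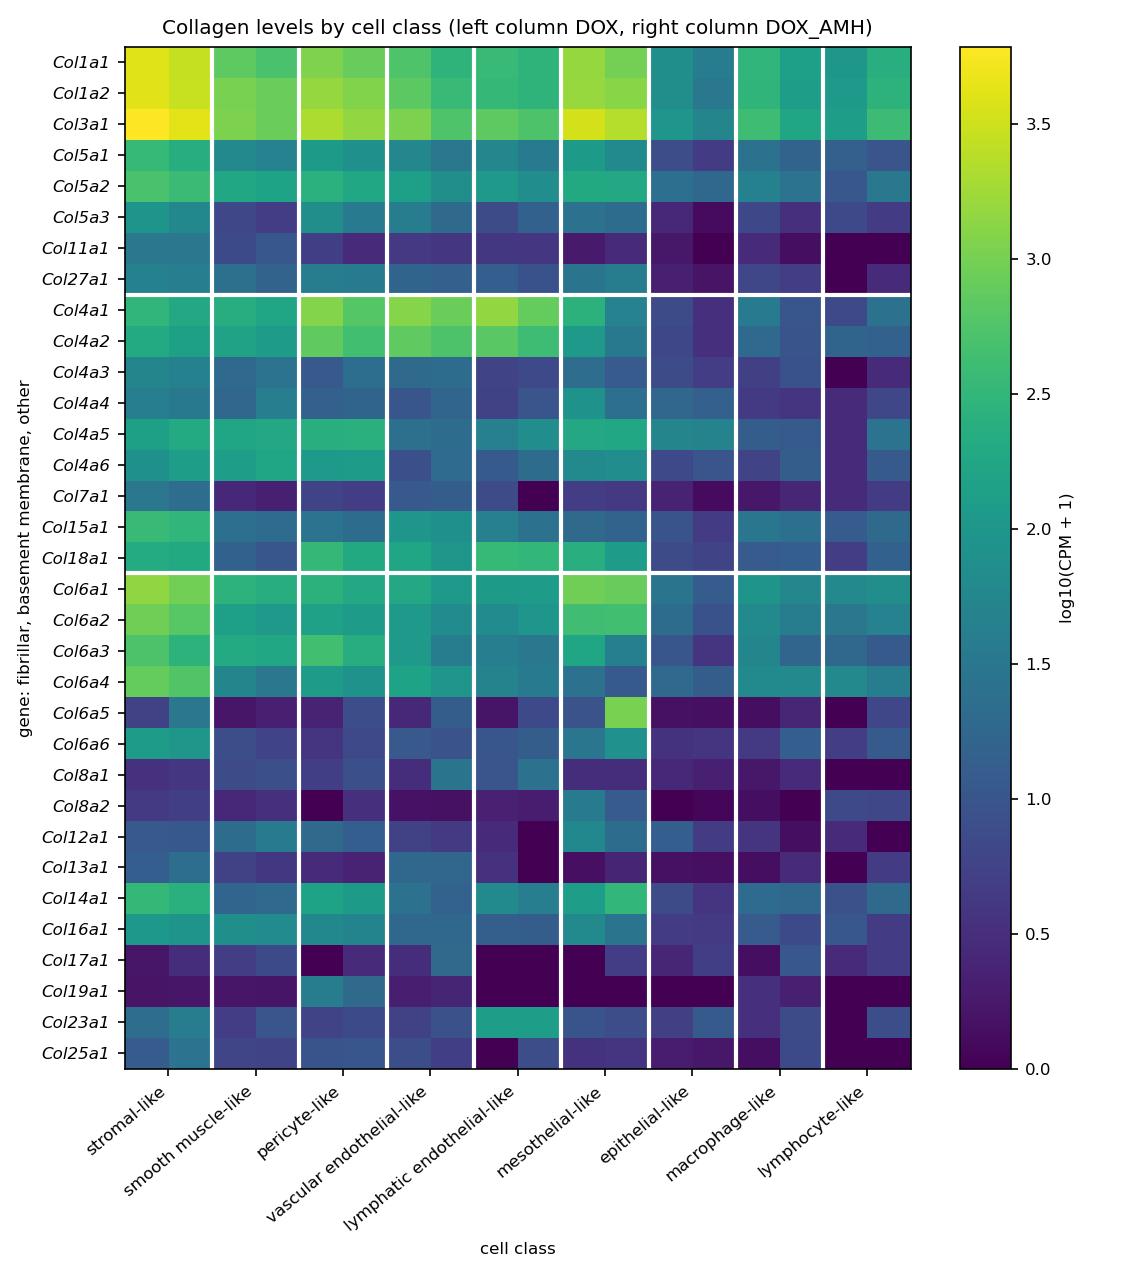
Levels of the 33 collagens with at least 20 CPM in some class, as log10(CPM + 1), for 9 cell classes with DOX in the left and DOX_AMH in the right column of each pair. Fibrillar genes are brightest in stromal-like cells in both libraries, Col4a1 and Col4a2 in pericyte-like and endothelial-like cells, and Col6a5 in mesothelial-like cells of DOX_AMH.

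By cell class, 33 of the 44 genes reached 20 CPM in at least 1 class. Stromal-like cells held the highest level of 17 of these 33 in both libraries, among them all 8 fibrillar genes that reached 20 CPM. Only 2 of the 9 basement membrane collagens, Col4a3 and Col15a1, were highest there in both libraries. The highest class was the same in both libraries for 24 of the 33. Only classes with at least 50 cells in a library were ranked. Squamous epithelial-like cells, 7 in DOX and 489 in DOX_AMH, were thus ranked in DOX_AMH only, where they were highest for Col7a1 and Col17a1. The 11 genes under 20 CPM in every class were Col2a1, Col9a1, Col9a2, Col9a3, Col10a1, Col11a2, Col20a1, Col22a1, Col24a1, Col26a1 and Col28a1. Col2a1, the main collagen of cartilage, had 2 and 6 UMIs in the kept cells of a whole library, and Col9a1, which decorates cartilage fibrils, had 9 and 14.

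In droplet libraries free RNA can add UMIs of genes that a cell does not express, and its amount was not measured here. Macrophage-like cells, which are not matrix producers, held a median of 3 collagen UMIs per cell in DOX and 2 in DOX_AMH, lymphocyte-like cells 2 and 2, against 210 and 95 in stromal-like cells. Their median depths were 7698 and 9731 UMIs for macrophage-like, 5607 and 5594 for lymphocyte-like and 14721 and 10172 for stromal-like cells. The summed fibrillar level was 1089 and 485 CPM in macrophage-like, 275 and 144 CPM in epithelial-like and 363 and 962 CPM in lymphocyte-like cells. The sum was thus higher in DOX_AMH in lymphocyte-like cells only. In the median cell the share of all collagens was lower in DOX_AMH in each of them. It was 0.0389% and 0.0257% in macrophage-like, 0.0301% and 0.0198% in epithelial-like and 0.0439% and 0.0293% in lymphocyte-like cells. A level below 0.2 of that of the highest class in both libraries is therefore not described as expression of that class. Genes under this limit stay in the class sums and class counts given below.

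Stromal-like cells held fewer UMIs of the abundant fibrillar collagens in DOX_AMH than in DOX. Several rare membrane-spanning collagens were higher, but the share of collagens at least 1.3-fold higher, 25%, was near the 22.9% of all genes. Of the 40 collagens with at least 50 UMIs over both libraries, 16 were at least 1.3-fold lower in DOX_AMH, beside 7.79% of the 16026 genes measured as well, and 10 were at least 1.3-fold higher, beside 22.9%. The median log2 ratio of the 40 collagens was -0.17, and that of all 16026 genes was 0.15. Among fibrillar collagens 6 of 9 were lower and 0 higher, among basement membrane collagens 3 of 9 were lower and 2 higher, and among the others 7 of 22 were lower and 8 higher. Without cluster 6, a stromal-like cluster with 444 and 156 cells, 10 collagens were at least 1.3-fold lower, beside 6.52% of 15633 genes, and 10 higher, beside 23.3%.

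As a sum, fibrillar collagens took 1.52% of the UMIs of stromal-like cells in DOX and 1.08% in DOX_AMH, a log2 ratio of -0.50 (-0.50 to -0.49). Basement membrane collagens took 0.143% and 0.127%, a log2 ratio of -0.17 (-0.18 to -0.15). The other collagens took 0.431% and 0.305%, a log2 ratio of -0.50 (-0.51 to -0.49), of which type VI alone gave 0.380% and 0.258%. In the median stromal-like cell all collagens together were 1.38% of the UMIs in DOX and 0.901% in DOX_AMH, with a middle range of 0.841% to 2.72% and of 0.531% to 1.76%. The ranges of single cells overlapped widely although the sums were far apart for their counting error. Depth moved in the same direction, with a median of 14721 UMIs per stromal-like cell in DOX and 10172 in DOX_AMH, and its part in the result was not tested.

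Scaling by the trimmed mean of M-values (TMM), which centres on the bulk of genes, moved every stromal-like log2 ratio by -0.20 and every smooth muscle-like one by -0.13. Under it 19 stromal-like collagens were at least 1.3-fold lower, beside 14.8% of the 16026 genes, and 9 higher, beside 11.7%. In smooth muscle-like cells 15 were lower, beside 12.2% of 12361 genes, and 5 higher, beside 11.9%. Col11a1, a minor fibrillar chain that sets fibril thickness, was the one gene of the 40 to change sign in stromal-like cells, from 0.01 to -0.18.

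Col1a1 and Col1a2 encode the 2 chains of type I collagen, the main cable protein of most tissues. Col1a1 stood at 4028 CPM (4014 to 4043) in stromal-like cells of DOX and 2878 CPM (2861 to 2894) in DOX_AMH, a log2 ratio of -0.49 (-0.50 to -0.48). For Col1a2 the levels were 4060 and 2950 CPM and the log2 ratio was -0.46 (-0.47 to -0.45). The chains stayed near 1 to 1, with 0.992 Col1a1 UMIs per Col1a2 UMI in DOX (0.987 to 0.997) and 0.976 in DOX_AMH (0.968 to 0.984). Col3a1, the chain of type III collagen that is typical of soft, distensible organs, was the most abundant collagen of all, at 6093 and 4203 CPM with a log2 ratio of -0.54 (-0.54 to -0.53).

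The type V chains start and thin the type I fibrils, and all were lower in DOX_AMH. Col5a1 stood at 338 and 229 CPM (log2 ratio -0.56, -0.60 to -0.53). Col5a2 followed with 504 and 380 CPM (-0.41, -0.44 to -0.38). Col5a3 had 89.2 and 56.9 CPM (-0.65, -0.72 to -0.58). The remaining fibrillar chains moved little: Col11a1 had 30.6 and 30.8 CPM (0.01, -0.09 to 0.11) and Col27a1, a fibrillar chain best known from cartilage, 45.8 and 41.0 CPM (-0.16, -0.24 to -0.07). Thus 6 fibrillar genes with the highest levels were all lower by 1.33-fold or more, and the 2 least abundant of the 8 differed by less than 1.3-fold.

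**Figure D2:**
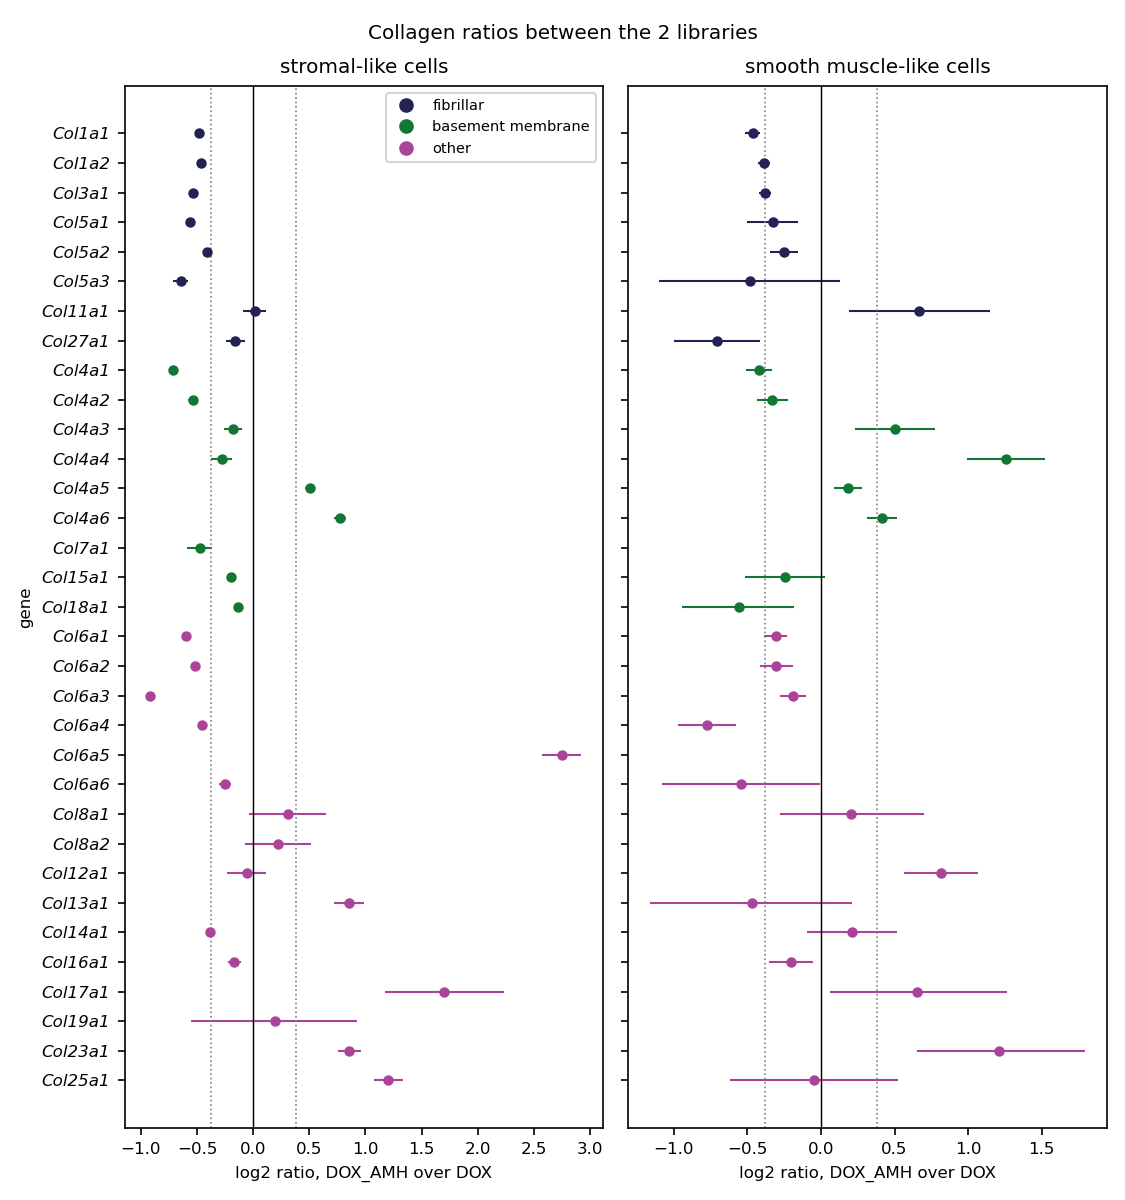
Log2 ratio of DOX_AMH over DOX for the 33 collagens in stromal-like (left) and smooth muscle-like cells (right), where the gene had at least 50 UMIs, with bars for the 95% counting interval and dotted lines at 1.3-fold. In stromal-like cells the abundant fibrillar and type VI genes lie left of 0 and Col4a5, Col4a6, Col13a1, Col23a1, Col25a1 and Col6a5 right of it.

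Type VI collagen is built from the Col6a1 and Col6a2 chains with a longer chain, most often Col6a3. Col6a1 stood at 1438 and 950 CPM in stromal-like cells, a log2 ratio of -0.60 (-0.61 to -0.58). Col6a2 had 922 and 643 CPM (-0.52, -0.54 to -0.50). Col6a3 had 530 and 280 CPM (-0.92, -0.95 to -0.89), the lowest ratio of any collagen above 20 CPM in these cells. The 3 partners were thus lower together, Col6a3 by 1.89-fold and the other 2 by less.

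The alternative long chains Col6a4, Col6a5 and Col6a6 lie side by side on mouse chromosome 9, between bases 105687809 and 106096783 of GRCm38 (mm10), and did not move together. Col6a4 stood at 785 and 573 CPM (-0.46, -0.48 to -0.43) and Col6a6 at 118 and 99.2 CPM (-0.25, -0.30 to -0.20). Col6a5 had 4.65 and 31.2 CPM, a log2 ratio of 2.75 (2.57 to 2.92). Most of its DOX_AMH UMIs were in cluster 6, where Col6a5 had 50 UMIs in 444 DOX cells and 1098 UMIs in 156 DOX_AMH cells, or 6.15 and 415 CPM. Without that cluster the stromal-like log2 ratio of Col6a5 was -0.10. In cluster 6, 5.18% of DOX cells (3.31 to 7.67) and 44.9% of DOX_AMH cells (36.9 to 53.0) held a Col6a5 UMI, and the 4 highest DOX_AMH cells gave 36.6% of its UMIs there. In cluster 6 the 4 adipocyte markers summed to 10.2 CPM in DOX and 141 CPM in DOX_AMH, with Lep at 0 in both, the 9 macrophage markers to 38.9 and 17.7 CPM and the 7 mesothelial markers to 53.4 and 76.3 CPM, and their part in the result was not tested. Mesothelial-like cells showed the same gene at higher levels, as described further on.

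Collagens on fibril surfaces lower the friction between fibrils and link them to other matrix. Col14a1, the most abundant of them, stood at 327 and 250 CPM in stromal-like cells (-0.39, -0.42 to -0.35), and Col16a1 at 103 and 91.5 CPM (-0.17, -0.23 to -0.11). Col12a1, known from tissue under tension, had 10.6 and 10.1 CPM there. Among the stromal-like clusters the level of Col14a1 ranged from 53.1 CPM in cluster 1 to 1262 CPM in cluster 10 in DOX, and from 30.7 to 1034 CPM in the same clusters in DOX_AMH.

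Membrane-spanning collagens are anchored in the cell surface, where they act in adhesion. Their sum was higher in stromal-like cells of DOX_AMH, at 46.1 and 89.98 CPM (log2 ratio 0.97, 0.90 to 1.03). The 3 short-network collagens summed to 6.16 and 7.19 CPM (0.22, 0.00 to 0.44), while the sums of type VI and of the fibril-surface collagens were lower in DOX_AMH. Col13a1, which is known from the neuromuscular junction, had 12.3 and 22.3 CPM (0.86, 0.72 to 0.99). Col23a1 had 21.6 and 39.2 CPM (0.86, 0.75 to 0.96). Col25a1, known from motor axon guidance, had 11.4 and 26.3 CPM (1.20, 1.07 to 1.34). All 3 lay above 0 with their whole interval, at levels far below those of the type I and type III chains. The rare Col20a1, Col26a1 and Col9a2 were also higher, with log2 ratios of 0.88 (0.63 to 1.13), 0.74 (0.55 to 0.92) and 0.83 (0.43 to 1.23) at levels of at most 11.2 CPM. Other rare genes were not: Col28a1 (-0.49) and Col9a3 (-0.40) were lower, and Col22a1 (0.35) and Col24a1 (0.22) differed by less than 1.3-fold.

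Within the stromal-like class 7 clusters held at least 50 cells in each library, and they differed more in their level of fibrillar collagens than the libraries did. The summed fibrillar level in DOX ranged from 5942 CPM in cluster 3 to 43481 CPM in cluster 10, and the clusters were formed without collagen genes. It was lower in DOX_AMH in all 7 clusters, with log2 ratios from -0.85 in cluster 6 to -0.23 in cluster 5. Col1a1, Col1a2, Col3a1, Col5a1, Col5a2, Col6a1, Col6a2 and Col6a3 were each lower in 7 of 7 clusters with an interval below 0. Col23a1 was higher in 7 of 7, in 6 with an interval above 0. Cluster 20, led by genes of cell division, had 145 and 16 cells and is not counted here, and its log2 ratio of Col1a1 was -0.55 (-0.65 to -0.45).

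**Figure D3:**
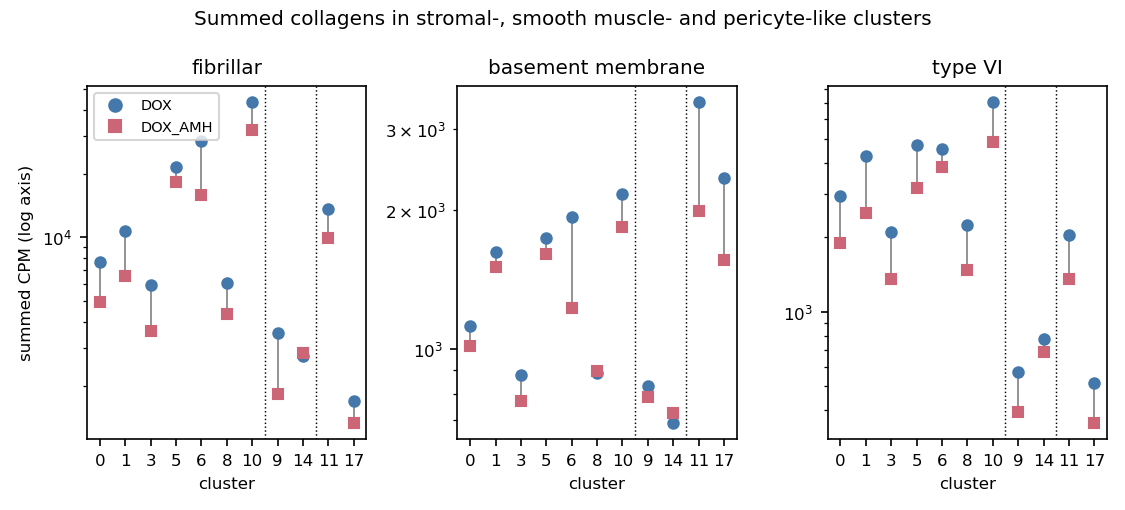
Summed CPM of fibrillar, basement membrane and type VI collagens on log axes in the stromal-like clusters 0 to 10, the smooth muscle-like clusters 9 and 14 and the pericyte-like clusters 11 and 17, with DOX as circles and DOX_AMH as squares. The fibrillar square lies below the circle in all 7 stromal-like clusters and in cluster 9, and just above it in cluster 14.

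Type IV collagen is the sheet-forming protein of basement membranes, and its 6 genes lie as 3 head-to-head pairs, each pair read outwards from a shared start region. Col4a1 and Col4a2 encode the chains present in nearly every basement membrane, Col4a3 and Col4a4 join Col4a5 in specialised ones such as the kidney filter, and Col4a5 also joins Col4a6 in smooth muscle and some epithelia. The start sites in the GENCODE annotation of GRCm38 lie 21 bases apart for Col4a1 and Col4a2, 72 for Col4a3 and Col4a4 and 1309 for Col4a5 and Col4a6. The 250 bases before the start are printed for the 2 pairs that went opposite ways in stromal-like cells. They are RefSeq promoters of build GRCm38.p6, at chr8:11312827-11313076 on the minus strand for Col4a1, chr8:11312555-11312804 on the plus strand for Col4a2, chrX:141475169-141475418 on the plus strand for Col4a5 and chrX:141474077-141474326 on the minus strand for Col4a6. Each is given 5′ to 3′ on the strand of its gene, with the CCAAT box (CCAAT, or ATTGG on the other strand) and the GC box (GGGCGG, or CCGCCC) in capitals.
Col4a1: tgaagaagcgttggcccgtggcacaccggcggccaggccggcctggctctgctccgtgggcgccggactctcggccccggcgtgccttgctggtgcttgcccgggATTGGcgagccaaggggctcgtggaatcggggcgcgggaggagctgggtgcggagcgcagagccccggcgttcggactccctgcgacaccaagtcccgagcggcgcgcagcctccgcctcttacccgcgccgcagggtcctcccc
Col4a2: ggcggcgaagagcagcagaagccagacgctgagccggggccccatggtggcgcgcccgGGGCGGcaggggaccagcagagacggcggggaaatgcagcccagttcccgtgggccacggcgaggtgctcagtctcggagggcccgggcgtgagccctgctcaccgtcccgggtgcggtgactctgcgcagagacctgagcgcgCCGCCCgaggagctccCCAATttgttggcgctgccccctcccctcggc
Col4a5: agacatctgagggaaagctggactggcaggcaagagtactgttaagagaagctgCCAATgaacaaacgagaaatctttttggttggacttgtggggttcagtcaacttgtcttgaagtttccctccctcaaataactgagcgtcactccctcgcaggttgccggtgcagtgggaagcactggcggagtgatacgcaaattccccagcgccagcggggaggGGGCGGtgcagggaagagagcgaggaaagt
Col4a6: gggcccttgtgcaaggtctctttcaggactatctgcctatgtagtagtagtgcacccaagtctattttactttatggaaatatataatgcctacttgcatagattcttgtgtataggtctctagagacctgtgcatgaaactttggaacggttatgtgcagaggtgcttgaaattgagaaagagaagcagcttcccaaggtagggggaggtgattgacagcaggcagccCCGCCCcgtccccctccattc

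The Col4a1 and Col4a2 windows run in opposite directions from almost the same place. The 2 annotated genes overlap by 22 bases, so each window lies within the partner gene. These windows hold 74.4% and 73.6% G and C, against 54% and 47.6% for Col4a5 and Col4a6. A CCAAT box was found once in Col4a1, once in Col4a2, once in Col4a5 and 0 times in Col4a6, and 33.8% of the 32817 promoters of the same length held one. A GC box occurred 0 times in Col4a1, 2 times in Col4a2 and once in each of Col4a5 and Col4a6, against 32.7% of all promoters with at least one. Of the 44 collagens 35 had a RefSeq promoter, with 38 windows in all, of which 13 (34.2%) held a CCAAT box, 22 (57.9%) a GC box and 5 (13.2%) the TATA box sequence TATAAA or its reverse TTTATA, which 12.4% of all promoters held. These are matches of letters and no measure of binding.

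In stromal-like cells Col4a1 stood at 313 CPM in DOX and 191 CPM in DOX_AMH, a log2 ratio of -0.71 (-0.75 to -0.67). Its partner Col4a2 had 206 and 142 CPM (-0.54, -0.58 to -0.49). Both were lower in 7 of 7 stromal-like clusters. Col4a5 had 143 and 202 CPM (0.50, 0.46 to 0.55) and Col4a6 78.1 and 133 CPM (0.77, 0.72 to 0.83). Each was higher in 6 of 7 clusters and lower in cluster 6, with log2 ratios of -0.61 (-0.83 to -0.40) and -0.94 (-1.34 to -0.56) there. Under TMM scaling the stromal-like ratios were 0.31 for Col4a5 and 0.58 for Col4a6, so that Col4a5 was no longer 1.3-fold higher. The middle pair lay between, with Col4a3 at 51.1 and 45.2 CPM (-0.18, -0.26 to -0.10) and Col4a4 at 40.6 and 33.4 CPM (-0.28, -0.38 to -0.19).

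The numbers of UMIs per partner also shifted within pairs. In stromal-like cells there were 1.52 Col4a1 UMIs per Col4a2 UMI in DOX (1.48 to 1.55) and 1.34 in DOX_AMH (1.298 to 1.391). For Col4a5 over Col4a6 the figures were 1.83 (1.77 to 1.89) and 1.52 (1.47 to 1.57). The Col4a1 to Col4a2 ratio was lower in DOX_AMH in each of the 6 classes compared, but in mesothelial-like cells both genes lay under the limit set for free RNA. The intervals of the 2 libraries overlapped in smooth muscle-like cells (1.41 to 1.61 and 1.32 to 1.52), vascular endothelial-like cells (1.64 to 1.87 and 1.52 to 1.69) and lymphatic endothelial-like cells (2.11 to 2.45 and 1.67 to 2.13).

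**Figure D4:**
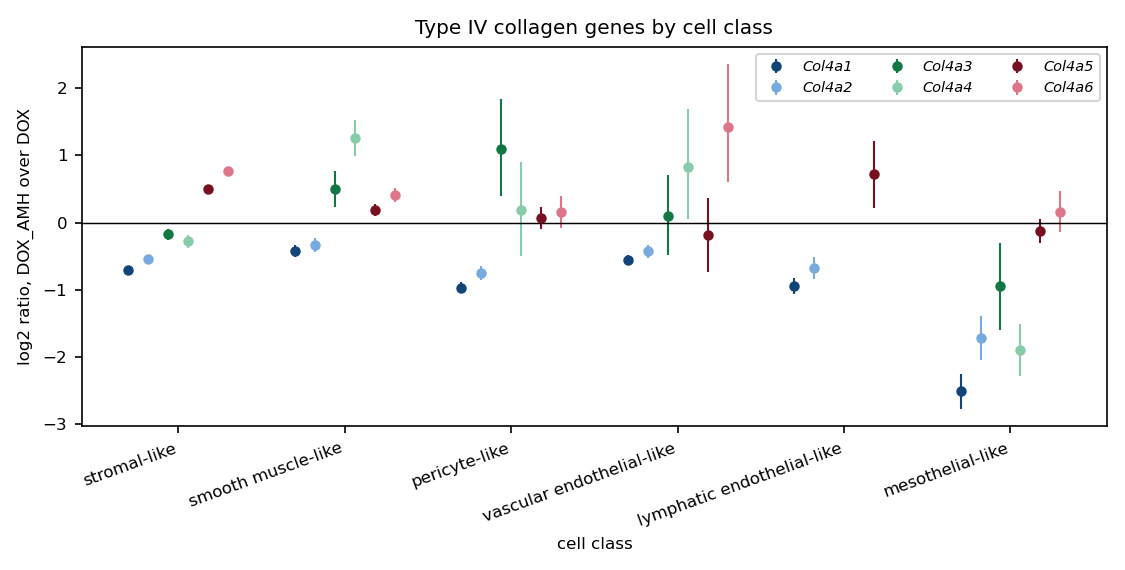
Log2 ratio of DOX_AMH over DOX for the 6 type IV collagen genes in 6 cell classes, with bars for the 95% counting interval and points only where the gene had at least 50 UMIs. Col4a1 and Col4a2 lie below 0 in all 6 classes, and Col4a6 lies above 0 in every class where it is shown.

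Outside type IV, Col15a1, which bridges basement membrane and fibrils, had 355 and 309 CPM (-0.20, -0.23 to -0.17), and Col18a1, the precursor of endostatin, 216 and 197 CPM (-0.13, -0.17 to -0.09). Col7a1, the anchoring fibril that fastens epithelium to the tissue below, had 30.2 and 21.7 CPM (-0.48, -0.59 to -0.36). Most of it came from cluster 1, with 89.3 and 56.3 CPM, while in cluster 5 it was higher in DOX_AMH, at 15.6 and 29.5 CPM (0.92, 0.48 to 1.36).

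Smooth muscle-like cells of the uterine wall held less collagen RNA than stromal-like cells, and their 2 clusters differed in how the fibrillar genes compared. Of 30 collagens with at least 50 UMIs, 10 were at least 1.3-fold lower in DOX_AMH, beside 7.7% of 12361 genes, and 7 were higher, beside 20.2%. The median log2 ratio was -0.25 for the collagens and 0.13 for all genes. Fibrillar collagens summed to 3119 and 2381 CPM (-0.39, -0.41 to -0.37), basement membrane collagens to 754 and 752 CPM (0.00, -0.05 to 0.04) and the others to 828 and 716 CPM (-0.21, -0.26 to -0.17). The fibrillar sum includes Col1a1 and Col3a1, which lay under the limit set for free RNA in the whole class. Averaged over cells, 5 were lower and 5 higher, and with doublets kept 17 and 6, but the share of all genes was not counted in these settings. Among collagens with at least 500 UMIs 5 were lower and 3 higher, beside 4.78% and 12.6% of the genes with that many UMIs. Under TMM scaling 15 were lower, beside 12.2% of all genes, and 5 higher, beside 11.9%.

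Cluster 9, led by Acta1, Tnni2 and Pcp4, and cluster 14, led by Actg2 and Cnn1, went different ways in type I collagen. Col1a1 stood at 834 and 329 CPM in cluster 9 (-1.34, -1.43 to -1.26) and at 568 and 642 CPM in cluster 14 (0.18, 0.11 to 0.25). Col1a2 had 1391 and 746 CPM in cluster 9 (-0.90, -0.96 to -0.84) and 799 and 877 CPM in cluster 14 (0.14, 0.08 to 0.19). In the whole class Col1a1, at 689 and 499 CPM, and Col3a1 lay under the limit set for free RNA. The 4 erythroid markers summed to 15.5 CPM in these cells in DOX and 1449 CPM in DOX_AMH, and the 8 stromal markers to 775 and 765 CPM; the part of the erythroid RNA was not tested. Col12a1 was also lower in cluster 9 and higher in cluster 14, at 19.4 and 9.36 CPM in cluster 9 (-1.05, -1.59 to -0.52) and 21.3 and 58.1 CPM in cluster 14 (1.45, 1.14 to 1.76).

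Among type IV genes of the smooth muscle-like class, Col4a3 to Col4a6 were higher in DOX_AMH and Col4a1 and Col4a2 lower. Col4a6, highest of all classes here, had 127 and 170 CPM (0.41, 0.31 to 0.52) and Col4a5 169 and 192 CPM (0.18, 0.09 to 0.28). Col4a4 had 16.8 and 40.3 CPM (1.26, 1.00 to 1.52), with a UMI in 10.97% of DOX cells (9.02 to 13.2) and 18.7% of DOX_AMH cells (16.5 to 21.1). Its partner Col4a3 had 18.6 and 26.3 CPM (0.50, 0.23 to 0.78), and in cluster 9 alone its log2 ratio was -0.07. Col4a1 stood at 231 and 172 CPM (-0.42, -0.51 to -0.34) and Col4a2 at 153 and 121 CPM (-0.33, -0.44 to -0.22). Under TMM scaling the log2 ratios were 0.37 for Col4a3, 0.05 for Col4a5 and 0.29 for Col4a6, all below 1.3-fold. Those of Col4a4, Col4a1 and Col4a2 were 1.13, -0.55 and -0.46. Among the rest, Col12a1 had 20.4 and 35.9 CPM (0.81, 0.56 to 1.07) and Col27a1 24.2 and 14.8 CPM (-0.71, -1.002 to -0.42), while Col16a1, at 75.4 and 65.3 CPM, and Col6a3, at 202 and 177 CPM, differed by less than 1.3-fold.

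Pericyte-like cells, which wrap small vessels, had the highest Col4a5 of any class, and 15 of 23 collagens were at least 1.3-fold lower in DOX_AMH, beside 10.6% of 9097 genes. Only Col4a3 was higher, 1 of 23 beside 19.6%, at 10.4 and 22.2 CPM (1.10, 0.40 to 1.85). Col4a1 stood at 1194 and 609 CPM (-0.97, -1.06 to -0.89), Col4a2 at 735 and 435 CPM (-0.76, -0.86 to -0.65) and Col18a1 at 335 and 200 CPM (-0.75, -0.90 to -0.59). Col4a5 had 239 and 250 CPM in the class (0.07, -0.09 to 0.23), but its 2 clusters differed. It stood at 45.4 and 115 CPM in cluster 11 (log2 ratio 1.34) and at 321 and 303 CPM in cluster 17 (-0.08). The high class level thus came from cluster 17. Col6a3 had 437 and 230 CPM (-0.92, -1.07 to -0.78) and Col5a3 72.6 and 35.7 CPM (-1.02, -1.39 to -0.67).

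The 7 pericyte markers summed to 2192 and 3155 CPM in this class, below the 8 smooth muscle markers at 12693 and 11404 CPM, and a gate on each cell's own markers gave the same class for 15.2% and 12.9% of its cells. Erythroid markers summed to 13.5 and 6591 CPM, and their part was not tested. The result depended on which clusters carried the name. Col4a1 was lower in both clusters, at 1790 and 870 CPM in cluster 11 (-1.04, -1.18 to -0.91) and 941 and 506 CPM in cluster 17 (-0.89, -1.01 to -0.78). With doublets kept, and with no cell filter, the class lost nearly all of cluster 17 and took in 70 and 58 cells of cluster 12, all from DOX. In each of these settings 1 collagen was at least 1.3-fold lower, and the share of all genes was not counted. The log2 ratio of Col4a1 was 0.04 with doublets kept and -0.13 with no cell filter.

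Col19a1, a fibril-surface collagen known from muscle and nerve development, was highest in pericyte-like cells. It stood at 38.8 CPM in DOX and 19.3 CPM in DOX_AMH there (-1.01, -1.51 to -0.51), and the next class had 2.28 and 1.48 CPM. Within the class it lay in cluster 17, with 78 and 60 UMIs, against 8 and 0 UMIs in cluster 11. A Col19a1 UMI was held by 18.6% of the DOX cells (13.8 to 24.2) and 9.41% of the DOX_AMH cells (6.64 to 12.8), where the median cell had 9427 and 7649 UMIs. In macrophage-like cells the shares were 1.77% and 1.35%.

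Vascular endothelial-like cells were led by Col4a1 and Col4a2, the chains of the vessel sheet. Of 27 collagens, 14 were at least 1.3-fold lower in DOX_AMH, beside 9.9% of 9660 genes, and 5 higher, beside 15.5%. Col4a1 stood at 1267 and 860 CPM (-0.56, -0.63 to -0.48), Col4a2 at 724 and 538 CPM (-0.43, -0.53 to -0.33) and Col18a1 at 164 and 100 CPM (-0.71, -0.93 to -0.49). The 7 pericyte markers, all detected, summed to 901 CPM in these cells in DOX and 530 CPM in DOX_AMH, and the 8 stromal markers to 658 and 449 CPM. Erythroid markers summed to 21.5 and 3726 CPM, macrophage markers to 18.3 and 109.6 CPM and squamous markers to 0.538 and 147 CPM. The pericyte and stromal sums were lower in DOX_AMH, as were 14 of the 27 collagens. The erythroid, macrophage and squamous sums were higher. The part of all these sums in the result was not tested. Col1a1, Col1a2, Col3a1, Col5a1, Col6a1 and Col6a2, all counted among the 14 lower collagens, lay under the limit set for free RNA here.

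Col8a1, a short-chain collagen known from endothelium, was higher in DOX_AMH in vascular endothelial-like cells. It had 4 UMIs in 3 of 129 DOX cells and 113 UMIs in 34 of 247 DOX_AMH cells, or 2.15 and 28.0 CPM (3.70, 2.30 to 5.60). The 4 highest DOX_AMH cells gave 32.7% of these UMIs. Lymphatic endothelial-like cells had 8.81 and 24.8 CPM of Col8a1, from 14 and 25 UMIs, and there the 4 highest cells gave 92% in DOX_AMH.

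Lymphatic endothelial-like cells, of which there were 85 and 59, had the highest Col4a1 of any class in DOX and the highest Col23a1 in both libraries. Of 16 collagens, 8 were at least 1.3-fold lower in DOX_AMH, beside 16.5% of 7215 genes, and 2 higher, beside 16.3%. Among the lower ones Col3a1, Col5a1 and Col6a4 lay under the limit set for free RNA here. Col4a1 had 1489 and 772 CPM (-0.95, -1.07 to -0.83) and Col4a2 656 and 409 CPM (-0.68, -0.85 to -0.52). Col18a1, at 346 and 323 CPM (-0.10, -0.30 to 0.10), and Col23a1, at 133 and 128 CPM (-0.05, -0.38 to 0.27), had intervals that held 0. Col23a1 came from 40 of 85 and 25 of 59 cells, and the 4 highest gave 49.8% and 44.2% of its UMIs. The count of lower collagens was 3 when each cell was weighted equally and 16 with no cell filter, where the share of all genes was not counted. Macrophage markers summed to 129.6 and 336 CPM in this class, and their part was not tested.

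In mesothelial-like cells, Col6a5 was far higher and Col6a3 and Col4a4 were lower in DOX_AMH. Of 26 collagens, 14 were at least 1.3-fold lower in DOX_AMH, beside 30.7% of 9835 genes, and 5 were higher, beside 13.9%. The median log2 ratio was -0.49 for the collagens and -0.16 for all genes. Other markers also moved: the 8 smooth muscle markers, all detected, summed to 1022 CPM in DOX and 252 CPM in DOX_AMH, the 9 macrophage markers to 208 and 31.1 CPM, and the 8 squamous keratin markers to 6.53 and 365 CPM, with Krt5, Krt13, Krtdap and Dsg3 at 0 in DOX. The 7 mesothelial markers summed to 2783 and 2094 CPM. The 8 stromal markers, all detected, summed to more, at 6591 and 6227 CPM, beside 6323 and 6304 CPM in stromal-like cells. The part of these other cells in the collagen values was not tested.

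Col6a5, the type VI chain described above for cluster 6, had the largest log2 ratio of any collagen measured in the 6 classes. Mesothelial-like cells of DOX held 19 UMIs, or 8.28 CPM, and those of DOX_AMH 3522 UMIs, or 1055 CPM, a log2 ratio of 6.99 (6.35 to 7.73). A Col6a5 UMI was present in 10 of 87 cells (11.5%, 5.65 to 20.1) and in 106 of 136 cells (77.9%, 70.0 to 84.6). After each cell was thinned to 2000 UMIs the shares were 1.15% and 62.2%, against 0% and 0.521% of macrophage-like cells. In DOX the highest cell held 8 UMIs, while in DOX_AMH the median cell held 10 and 71 cells held 10 or more. The 4 highest DOX_AMH cells gave 28.4% of its UMIs, and with every cell weighted equally the log2 ratio was 5.65. The summed type VI collagens were 1563 and 2420 CPM (0.63, 0.57 to 0.69) in these cells, of which Col6a5 alone gave 8.28 and 1055 CPM. Col6a1 and Col6a3 were lower in DOX_AMH.

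**Figure D5:**
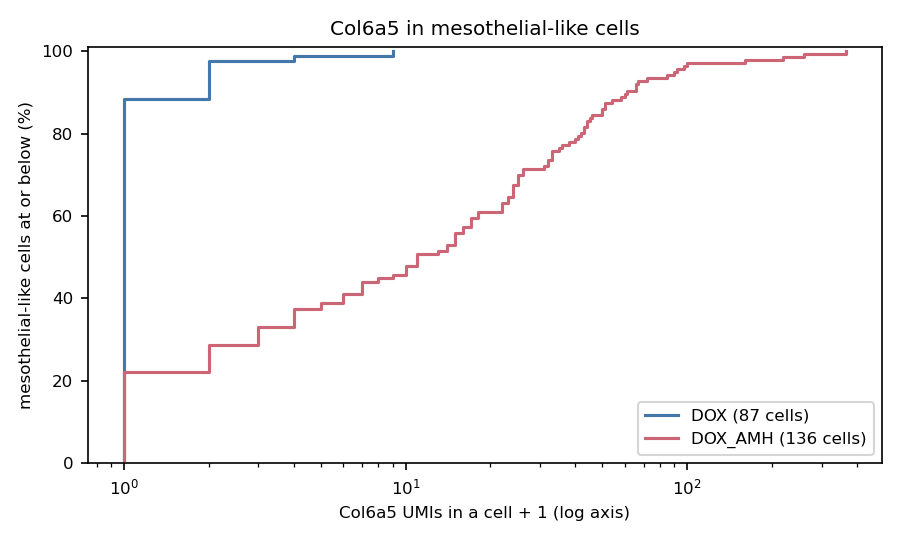
Share of mesothelial-like cells at or below each number of Col6a5 UMIs, on a log axis of UMIs + 1, for 87 DOX and 136 DOX_AMH cells. The DOX line starts near the top because 10 of 87 cells held any UMI, and the DOX_AMH line climbs up to 365 UMIs in 1 cell.

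Other collagens of mesothelial-like cells went both ways. Col14a1 had 131 and 314 CPM (1.27, 1.08 to 1.46), with a UMI in 58.6% and 77.9% of cells, and Col6a6, beside Col6a5 in the genome, 29.6 and 81.5 CPM (1.46, 1.07 to 1.86). Col6a3 had 166 and 42.2 CPM (-1.97, -2.26 to -1.69). Col4a4 had 87.1 and 23.4 CPM (-1.90, -2.30 to -1.51) and was higher in this class than in any other in DOX. Col12a1 had 57.9 and 20.7 CPM (-1.49, -1.93 to -1.06). Col8a2, partner of Col8a1 in the sheet under the corneal lining, was highest in this class in both libraries, at 34.8 and 11.4 CPM (-1.61, -2.21 to -1.04). Col4a1, at 266 and 46.4 CPM, was under the limit set for free RNA, and Col1a1 had 1553 and 995 CPM (-0.64, -0.71 to -0.57) and Col3a1 3425 and 2274 CPM (-0.59, -0.64 to -0.54).

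Epithelial collagens were few. Squamous epithelial-like cells, defined by keratins such as Krt5 and Krt14, numbered 7 in DOX and 489 in DOX_AMH and were not compared. They held the hemidesmosome collagen Col17a1, which fastens basal epithelial cells, at 312 CPM in DOX_AMH, with a UMI in 87.3% of cells (84.0 to 90.1), and in 6 of the 7 DOX cells. Col7a1, its partner below the membrane, stood at 41.9 CPM there. Col17a1 was low elsewhere and higher in DOX_AMH, where these cells were many, and their part was not tested: stromal-like cells had 0.668 and 2.17 CPM, and vascular endothelial-like cells 2.15 and 19.3 CPM, of which the 4 highest cells gave 85.9% in DOX_AMH. Epithelial-like cells, 270 and 124, carried Col4a5 at 2.54 and 2.69 UMIs per cell and Col4a4 at 0.815 and 0.750 UMIs per cell. These 2 genes are given per cell and not scaled to depth, which had a median of 30447.5 and 34582.5 UMIs. The values therefore give no direction between the libraries.

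The enzymes and partners that work with collagens were counted beside the collagens. As background, 7.79% of all genes in stromal-like cells and 7.7% in smooth muscle-like cells were lower by at least 1.3-fold, and 22.9% and 20.2% were higher. Of 31 genes that modify, fold, cut or cross-link collagen chains, 5 were at least 1.3-fold lower in stromal-like cells and 2 higher, with a median log2 ratio of -0.03, and in smooth muscle-like cells 3 of 26 measured were lower and 3 higher, with a median of -0.10. The lowest 2 in stromal-like cells were P4ha3, a proline hydroxylase subunit with 52 and 8 UMIs (-1.83, -3.12 to -0.75), and Adamts2, which trims the end of fibrillar procollagen, at 143 and 89.3 CPM (-0.68, -0.74 to -0.63). Highest were Tll1, another procollagen protease, at 0.9 and 1.77 CPM (0.97, 0.47 to 1.48), and P3h2, a prolyl 3-hydroxylase that acts on type IV collagen, at 7.46 and 11.2 CPM (0.58, 0.40 to 0.77). In smooth muscle-like cells Adamts3 (-1.14, -1.43 to -0.85) and Adamts2 (-0.75, -0.94 to -0.55) were lowest and Adamts14 (1.35, 0.53 to 2.23) and P3h2 (0.62, 0.44 to 0.81) highest.

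Fibril-associated proteins counted 3 lower and 1 higher of 13 in stromal-like cells, with a median of -0.07, beside 7.79% and 22.9% of all genes. In smooth muscle-like cells 0 of 12 were lower and 5 higher, with a median of 0.15, beside 7.7% and 20.2%. In stromal-like cells the proteoglycans Aspn (-0.71, -0.90 to -0.53) and Ogn (-0.57, -0.62 to -0.51) were lowest and Prelp (0.48, 0.35 to 0.61) and Fmod (0.34, 0.08 to 0.60) highest. Among smooth muscle-like cells Prelp (0.95, 0.73 to 1.18) and Bgn (0.88, 0.75 to 1.01) were highest and Fn1 (-0.37, -0.44 to -0.30) and Sparc (-0.33, -0.37 to -0.29) lowest.

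The partners of type IV collagen in the basement membrane, laminins, nidogens and perlecan, counted 0 lower and 4 higher of 15 in stromal-like cells (median 0.07), beside 7.79% and 22.9% of all genes. They counted 1 lower and 3 higher of 14 in smooth muscle-like cells (median 0.00), beside 7.7% and 20.2%. In smooth muscle-like cells Lama2, the muscle laminin chain, had 39.6 and 89.2 CPM (1.17, 1.00 to 1.34) and Lama3 20.7 and 41.7 CPM (1.01, 0.77 to 1.25), while Lamb1 (-0.38, -0.58 to -0.19) and Lama5 (-0.32, -0.51 to -0.13) were lowest. In stromal-like cells Lamb3 (1.44, 0.89 to 2.01) and Lama3 (0.64, 0.20 to 1.08), both at or under 2.07 CPM, were highest and Lamc1 (-0.27, -0.32 to -0.21) and Lamb1 (-0.19, -0.25 to -0.14) lowest. Lamb3 and Lama3 are also chains of squamous epithelium, whose markers summed to 9.38 CPM in stromal-like cells of DOX and 57.8 CPM in DOX_AMH, and their part was not tested.

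Collagen receptors counted 1 lower and 3 higher of 8 in stromal-like cells (median 0.21), beside 7.79% and 22.9% of all genes, and 1 lower and 1 higher of 7 in smooth muscle-like cells (median 0.15), beside 7.7% and 20.2%. Itga2, an integrin chain that binds type I collagen, had 19.6 and 12.8 CPM in stromal-like cells (-0.61, -0.76 to -0.47), followed by its partner Itgb1 (-0.22, -0.25 to -0.19). Itga10 (0.60, 0.25 to 0.96) and Itga11 (0.56, 0.36 to 0.75) were highest there. Among smooth muscle-like cells Itga10 (0.90, 0.37 to 1.46) and Itga1 (0.30, 0.21 to 0.39) were highest and Itga2 (-0.95, -1.80 to -0.12) and Itgb1 (-0.05, -0.11 to 0.01) lowest. Of the proteases that cut collagen, 0 of 4 measured differed by 1.3-fold in stromal-like cells, with Mmp14 (0.14, 0.09 to 0.18) highest and the lysosomal protease Ctsk (-0.36, -0.42 to -0.29) lowest. In smooth muscle-like cells Mmp9, at 8.22 and 11.6 CPM (0.49, 0.08 to 0.91), was the 1 of 4 that did.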

How the data were processed

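Droplet libraries of 2 pools of uteri, 1 per group, were analysed from the deposited count matrices, which hold UMI counts per gene and barcode. The authors made them with Cell Ranger 7.0.0 against mm10, per the submitters' processing notes. Barcodes with at least 1000 UMIs, 500 genes and at most 15% mitochondrial UMIs were kept. Doublets were called with Scrublet at an expected rate of 0.06, because a rate of 0.05 called none in DOX_AMH, and 396 and 278 barcodes were removed. Cells were clustered with scanpy 1.11.5 (2000 variable genes without collagens, 30 components, 15 neighbours, Leiden resolution 1). Clusters were named from marker lists, with a scoring rule set after the data were seen.

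UMIs were summed per library and class. CPM have exact Poisson intervals, ratios an exact binomial interval (share of the UMIs in 1 library) and shares an exact Clopper-Pearson interval, all at 95% and for counting error only. Ratios were computed for genes with at least 50 UMIs over both libraries, and 1.3-fold was used to count genes. No test was possible with 1 library per group. TMM factors came from edgeR 4.0.16. The script was tested on simulated counts. The members and gene lists were chosen with earlier results of these data known. Values are given for collagens with at least 20 CPM in their highest class and for some rarer ones. From each list they are given for the 2 highest and 2 lowest genes in the 2 largest classes. Promoters came from RefSeq. Alternatives changed the cell filter, doublets, clustering, class rule, scaling, weighting, thresholds and clusters included.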

Additional observations from a re-analysis of the deposited data

Results flagged for a closer look

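For 5 collagens the level in DOX_AMH was at least 1.3-fold higher than in DOX in one cell class and at least 1.3-fold lower in another, with counting intervals that did not reach 0 and a level above the limit for free RNA, with at least 20 CPM in one library, in each class named. The differences between the classes were not tested, since each group is 1 library. Col4a3, a chain of specialised basement membranes, had log2 ratios of 0.50 in smooth muscle-like, 1.10 in pericyte-like and -0.95 in mesothelial-like cells, and -0.074 in the smooth muscle-like cluster 9 alone. Under TMM scaling Col4a3 had 0.37 in smooth muscle-like cells, below 1.3-fold. Its partner Col4a4 had 1.26 in smooth muscle-like and -1.90 in mesothelial-like cells. Col12a1, a fibril-surface collagen, had 0.81 in smooth muscle-like and -1.49 in mesothelial-like cells, and -1.05 in cluster 9 alone. Col14a1, of the same group, had 1.27 in mesothelial-like, -0.39 in stromal-like and -0.44 in pericyte-like cells. The pericyte-like value was 0.22 with no cell filter, 0.076 with doublets kept and 0.32 in cluster 11 alone. The fibrillar Col27a1 had 0.54 in mesothelial-like and -0.71 in smooth muscle-like cells.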

How the results depend on the processing

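No paired analysis was possible because each group is 1 library and no result comes from a test, and for the same reason no replicate could be left out. Settings that leave out a cluster, take 1 cluster alone or ask for 500 UMIs were chosen after seeing the data. The cause of the changes below was not tested. Beyond the main setting, the share of all genes was counted only under TMM, at 500 UMIs and without cluster 6. Other counts below have no such share beside them. The stromal-like count of lower collagens was 10 without cluster 6 and 4 at 1.5-fold. The stromal-like fibrillar log2 ratio was -0.48 with no cell filter, -0.48 with a stricter one, -0.49 with doublets kept, -0.48 when clustering used collagens, -0.46 with a gate on each cell, -0.69 under TMM, -0.50 in CPM without collagens, -0.52 as a mean over cells, -0.53 with clusters weighted equally and -0.38 without cluster 6. The basement membrane sum was -0.36 under TMM, -0.14 over cells, -0.22 with equal clusters and -0.10 without cluster 6, and the other collagens -0.48 with no filter, -0.48 with the gate, -0.69 under TMM, -0.53 over cells and -0.48 with equal clusters. In smooth muscle-like cells the lower count was 16 with no filter, 17 with doublets kept, 5 over cells, 2 in cluster 14, 2 at 1.5-fold and 5 at 500 UMIs, and the higher count 4 in cluster 9, 13 at 1 UMI and 3 at 500 UMIs. Their fibrillar sum was -0.56 with no filter, -0.57 with doublets kept, -0.47 with the gate, -0.52 under TMM, -0.43 with equal clusters, -0.95 in cluster 9 and 0.043 in cluster 14. Their basement membrane sum was -0.074 with doublets kept, -0.10 with the gate, -0.13 under TMM, -0.080 in cluster 9 and 0.069 in cluster 14, and the other collagens -0.47 with no filter, -0.48 with doublets kept, -0.34 under TMM, -0.50 in cluster 9 and -0.041 in cluster 14. The pericyte-like lower count was 1 with no filter, 1 with doublets kept, 9 in cluster 17 and 7 at 1.5-fold, and the higher count 2 with no filter, 3 with doublets kept, 2 in cluster 11, 0 in cluster 17 and 10 at 1 UMI. The vascular endothelial-like higher count was 3 with a stricter filter, 3 when clustering used collagens, 2 with the gate, 8 over cells and 13 at 1 UMI. The lymphatic endothelial-like lower count was 16 with no filter, 3 over cells and 15 at 1 UMI, and the higher count 0 with no filter, 1 with doublets kept, 1 at Leiden resolution 0.5, 8 over cells, 1 at 1.5-fold and 12 at 1 UMI. The mesothelial-like higher count was 12 at 1 UMI, and the shares of these cells with a Col6a5 UMI were 11.5% and 77.9% without thinning. Single log2 ratios changed sign for Col6a5 in stromal-like cells (-0.10 without cluster 6), and in smooth muscle-like cells for Col1a1 (0.18) and Col1a2 (0.14) in cluster 14 and Col4a3 (-0.074) and Col12a1 (-1.05) in cluster 9. In pericyte-like cells with doublets kept, Col1a2 was 0.089, Col3a1 0.29, Col4a1 0.042, Col4a2 0.25, Col5a1 0.21, Col5a2 0.26, Col5a3 0.29, Col6a4 0.013, Col14a1 0.076 and Col18a1 0.14. With no filter, Col3a1 was 0.13, Col4a2 0.034, Col5a1 0.18, Col5a2 0.0033, Col5a3 0.25, Col14a1 0.22 and Col18a1 0.037, and in cluster 11 Col14a1 was 0.32. In lymphatic endothelial-like cells Col3a1 was 0.14, Col6a4 0.68 and Col15a1 0.72 over cells, and Col6a2 -0.74 with no filter and -0.31 with doublets kept. The smooth muscle-like basement membrane sum was -0.0042, and 0.019 over cells. The other 182 values for the main results, this one among them, stayed within 1.5 times the count or within the counting interval. Leaving out clusters of 1 library gave no value, since none lies in the 6 classes compared.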
